A study of Mus musculus with 2 samples.

Results

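A set of 10 genes that serve the uptake of apoptotic cells by macrophages (efferocytosis) were followed in the RNA of thioglycollate-elicited peritoneal macrophages before and after IL-4, out of 15623 genes listed in either library. They were taken by name, as 3 receptor tyrosine kinases (Mertk, Axl and Tyro3), the bridging ligands Gas6, Pros1 and Mfge8, the receptors Timd4 and Lrp1, and the signalling partners Elmo1 and Dock1. All 10 were found in both libraries, and a gene absent from a table would have counted as 0. The cells came from wild type C57BL/6 mice, young adults per the methods of the study, and were purified by adherence and kept in low serum. They were either left nontreated (NT) or stimulated with mouse IL-4 for 6 h, the cytokine that drives alternative (M2) polarization. Each group was 1 library, and no source used here says how many mice were pooled for it. There is therefore no spread between replicates, every interval below covers counting error only, and no difference between the libraries can be told apart from a difference between cultures or library preparations.

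Dying cells expose phosphatidylserine, which phagocytes bind either directly, through receptors such as Tim4 (encoded by Timd4), or through soluble bridging proteins. Gas6 and protein S (Pros1) bridge phosphatidylserine to the TAM kinases Tyro3, Axl and Mer, whereas Mfge8 bridges it to the alpha-v integrins, and Lrp1 is a large endocytic receptor that binds calreticulin on dying cells. Signals from some engulfment receptors act through the Elmo1-Dock1 complex, an exchange factor that switches on Rac during engulfment.

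The tables gave expected counts, which are estimates of the reads of each gene, and FPKM, which scale them for transcript length and depth. The NT library held 11035641 expected counts and the IL-4 library 11250099, and 3 counts, the smallest number taken as shown, corresponded to 0.272 and 0.267 CPM (expected counts scaled to the library total). Macrophage markers were abundant in both, with Lyz2 at 11289 FPKM in NT and 10811 in IL-4 and Cd68 at 3240 and 3465. One label field names bone marrow as the tissue and another names peritoneal macrophages. Of 7 markers of bone marrow progenitors, 1 (Mpo) was at 0 in both libraries and the highest of the others (Cd34, called higher) reached 1.07 FPKM in NT and 2.25 in IL-4. Of 6 adipocyte markers, 4 were at 0 in both, while Adipoq had 0 counts in NT and 139 in IL-4 and Fabp4, which macrophages also express, was at 599 and 715 FPKM. Fibroblast transcripts were present at a low level, and are given beside the results they touch.

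The stretches upstream of the start sites of Pros1, Lrp1 and Gas6 are shown because these were the members with the largest ratios among those with enough reads, Pros1 upward and the others downward. Each line holds the 250 bases before the annotated start, 5′ to 3′ on the strand of the gene, from RefSeq on GRCm38.p6. Capitals mark a match to TTCNNNNGAA, the spacing that Stat6 prefers, or to TTCNNNGAA, the spacing shared by other STAT proteins. Both patterns read the same on either strand.

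Pros1 (chr16:62854057-62854306, plus strand): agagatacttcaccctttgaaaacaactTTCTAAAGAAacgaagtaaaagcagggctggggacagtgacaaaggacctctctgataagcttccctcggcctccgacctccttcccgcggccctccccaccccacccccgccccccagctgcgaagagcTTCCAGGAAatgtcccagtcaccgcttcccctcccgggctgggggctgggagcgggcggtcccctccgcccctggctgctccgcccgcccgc

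Lrp1 (chr10:127621149-127621398, minus strand): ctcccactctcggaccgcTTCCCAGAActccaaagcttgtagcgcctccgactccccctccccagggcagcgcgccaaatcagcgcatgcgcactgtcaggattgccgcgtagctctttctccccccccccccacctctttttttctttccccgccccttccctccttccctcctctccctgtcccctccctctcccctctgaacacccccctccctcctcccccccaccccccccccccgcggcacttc

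Gas6 (chr8:13494536-13494785, minus strand): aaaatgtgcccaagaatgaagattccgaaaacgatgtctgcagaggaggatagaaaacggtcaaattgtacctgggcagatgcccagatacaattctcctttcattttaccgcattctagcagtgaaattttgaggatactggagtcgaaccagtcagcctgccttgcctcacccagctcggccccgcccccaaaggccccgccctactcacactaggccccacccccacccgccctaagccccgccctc

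Of the 11 windows of the 10 genes (Elmo1 has 2 start sites), the Pros1 window alone held TTCNNNNGAA, as TTCTAAAGAA starting 222 bases before the start site. It also held TTCNNNGAA once, as TTCCAGGAA starting 92 bases before it. The Lrp1 window held TTCNNNGAA once, as TTCCCAGAA starting 232 bases before the start site, and the downstream Elmo1 window held it at 2 places. No match of either kind was present in the windows of Gas6, Mertk, Axl, Tyro3, Mfge8, Timd4, Dock1 or in the upstream Elmo1 window. Across 32851 RefSeq windows of the same length, 5.85% held TTCNNNNGAA and 7.02% held TTCNNNGAA. A match of letters is not a measured binding site.

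To ask which of the uptake genes responded to IL-4, expected counts were scaled to the total of each library and the IL-4 value was divided by the NT value, on a log2 scale. Lrp1 and Gas6 fell to 43.0% and 48.0% of their NT levels. Mertk and Mfge8 were within a few percent of their NT levels, and Pros1 stood higher in the IL-4 library without passing the threshold. A call required at least 20 expected counts over both libraries, a 95% counting interval that excluded 0 and a log2 ratio of 0.75 or more in either direction, which is the size of change applied by the study. By this rule 2 members were called lower and 0 were called higher, among 9 with enough counts. The same rule called 7.57% of 11653 genes lower and 4.66% higher. With 9 members, a departure from those shares was not tested. The median log2 ratio of the 9 members was -0.28, against -0.02 for all genes with enough counts. The median of the members is the ratio of Timd4, which had only 22 counts over both libraries. Neither median takes transcript length into account.

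**Figure D1:**
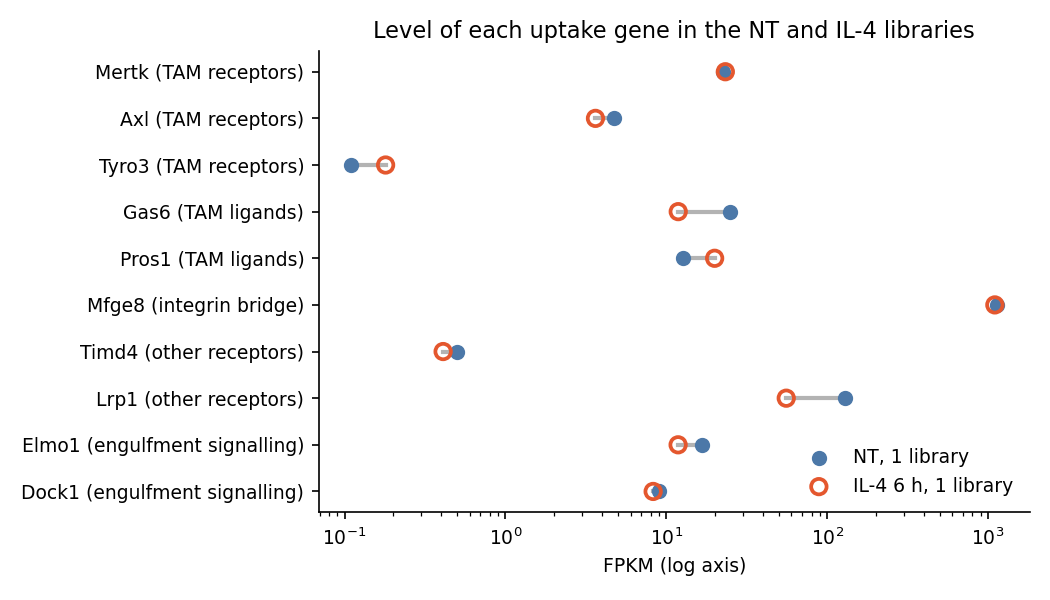
Level of each of the 10 uptake genes in FPKM on a log axis, with a filled point for the NT library and an open point for the IL-4 library, 1 library each and no error bars. Mfge8 is above 1000 FPKM in both, Tyro3 and Timd4 are the lowest in both, and Gas6 and Pros1 change places.

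The receptor kinases were represented mainly by Mertk (chr2:128698915-128803162, 19 exons, 994 residues), the kinase most associated with engulfment by resting macrophages. Mertk had 897 expected counts in NT and 942 in IL-4, or 22.6 and 23.3 FPKM. Its log2 ratio was 0.04, with an interval from -0.09 to 0.18, so any change in these libraries beyond counting error was smaller than the threshold. Axl (chr7:25756500-25788924), the kinase known for its induction by inflammatory signals, had 264 counts in NT and 206 in IL-4. In FPKM these were 4.76 and 3.63, the log2 ratio was -0.38 with an interval from -0.66 to -0.12, and Axl was not called. Tyro3 (chr2:119797740-119818104) was close to the limit of detection, with 5 counts in NT and 8 in IL-4, and had too few counts for a call. Its log2 ratio of 0.60 had an interval from -1.14 to 2.61.

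Mertk thus made up 82.3% of the summed FPKM of the 3 kinases in NT and 85.9% in IL-4. The sums themselves were 27.5 and 27.1 FPKM. The log2 ratio of Mertk exceeded that of Axl by 0.43, with an interval from 0.13 to 0.73. This is 1 of 6 such pairs compared, each chosen after the values were seen, and the intervals were not adjusted for their number. A difference of this kind does not depend on how the libraries are scaled, but it does depend on length. Relative to the 200 genes nearest to each in length, Mertk and Axl differed by 0.27, with an interval from -0.03 to 0.58 that included 0.

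The TAM ligands moved apart. Gas6 (chr8:13465374-13494535, 15 exons, 674 residues), a vitamin K-dependent ligand of all 3 kinases, had 712 expected counts in NT and 348 in IL-4. In FPKM it fell from 24.8 to 11.9, which is 2.08-fold lower with a counting interval from 1.83 to 2.38. Its log2 ratio was -1.06. Pros1 (chr16:62854307-62929346, 15 exons, 675 residues), which encodes protein S, an anticoagulant cofactor and a ligand of Mertk and Tyro3, had 471 counts in NT and 751 in IL-4. In FPKM these were 12.8 and 19.99, and the log2 ratio was 0.64 with an interval from 0.48 to 0.81. The interval excluded 0 but the ratio was below 0.75, so Pros1 was not called. It did pass at a fold of at least 1.5, the size of change given in the methods of the study. Those methods also set a false-discovery limit, which needs replicates and was not computed here.

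Between the ligands the log2 ratios differed by 1.70, with an interval from 1.45 to 1.96, or 3.26-fold. As a result their order was inverted. Gas6 was the more abundant ligand per length in NT and Pros1 in IL-4, where the FPKM of Pros1 exceeded that of Gas6 1.68-fold (counting interval 1.48 to 1.92). Pros1 made up 34.1% of the summed FPKM of both in NT and 62.7% in IL-4. The sum was 37.6 FPKM in NT and 31.9 in IL-4. The ligands are modified by the carboxylase Ggcx and depend on Vkorc1 and Vkorc1l1 for recycled vitamin K. None of these 3 genes was called, with log2 ratios of -0.10, 0.13 and -0.05.

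Fibroblasts, mesothelial cells and endothelial cells are known to express Gas6, so their markers were examined in the same libraries. All 6 fibroblast markers were listed in NT and 5 in IL-4, where Lum was at 0, and the summed FPKM was 45.9 in NT and 38.9 in IL-4. Of these, 5 had enough counts, with log2 ratios from -0.64 (Pdgfra) to -0.08 (Dcn), and 0 were called. Col1a1, the type I collagen chain, was at 10.9 FPKM in NT and 8.46 in IL-4. Mesothelial markers were listed for 6 of 6 and summed to 6.32 FPKM in NT and 10.97 in IL-4, with Krt18 and Lrrn4 called higher and Msln at 12 counts in NT and 2 in IL-4. Endothelial markers were listed for 5 of 6 and summed to 3.73 FPKM in NT and 1.96 in IL-4. Of these, 3 had enough counts, with a median log2 ratio of -0.99. The VEGF receptor gene Kdr was called lower, from 171 to 66 counts (-1.39). It made up most of the summed FPKM, at 2.80 in NT and 1.06 in IL-4. Tie1 had 18 counts in NT and 9 in IL-4 (-0.99). Pecam1 went the other way, from 6 to 15 counts (1.23), and neither Tie1 nor Pecam1 was called. The part of these cells in the fall of Gas6 was not tested. In such bulk RNA, fewer cells of a type and less RNA in each of them cannot be told apart.

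**Figure D2:**
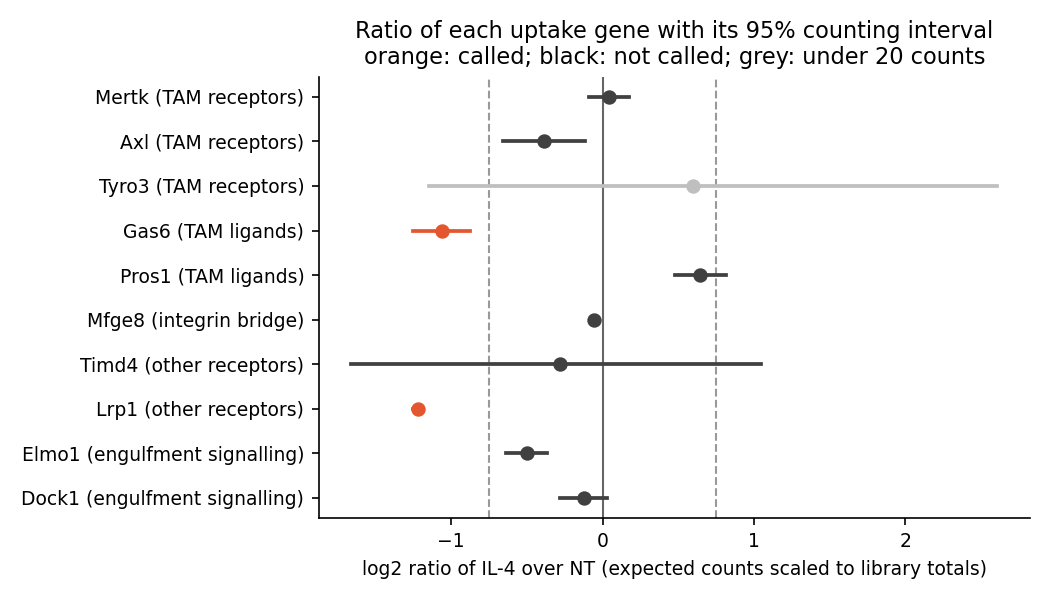
Log2 ratio of IL-4 over NT for each uptake gene on the horizontal axis, with its 95% counting interval as a line and dashed lines at -0.75 and 0.75. Lrp1 and Gas6 (orange, called) lie wholly below -0.75, and the intervals of Tyro3 and Timd4 are the widest.

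Mfge8 (chr7:79133768-79149060), a secreted glycoprotein that links phosphatidylserine to integrins, was by far the most abundant of the 10 genes. It had 27085 expected counts in NT and 26605 in IL-4, or 1145 and 1103 FPKM, and ranked at place 37 of all listed genes by FPKM in NT and 47 in IL-4. Its log2 ratio was -0.05, with an interval from -0.08 to -0.03. With this many reads the interval excluded 0, but the IL-4 level was 96.4% of that in NT. Of the integrin chains that receive Mfge8, Itgav was at 12.1 FPKM in NT and 12.4 in IL-4 and was not called, and Itgb5 was at 59.3 and 45.4 FPKM and was not called. Itgb3, the beta-3 chain, was called higher, from 291 to 717 counts, a log2 ratio of 1.27 (interval 1.07 to 1.47).

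Timd4 (chr11:46810786-46844333), whose product binds phosphatidylserine directly, was nearly silent. It had 12 counts in NT and 10 in IL-4, or 0.50 and 0.41 FPKM, and its log2 ratio of -0.28 had an interval from -1.66 to 1.05. A change of 2-fold in either direction was thus not detectable at this depth. Timd4 is known as a marker of resident rather than elicited peritoneal macrophages. Of 10 other resident markers, all were listed in both libraries, with Gata6, the factor that defines these cells, at 1.52 FPKM in NT and 2.13 in IL-4. In this list Selp was called higher and Thbd lower, and most of the summed FPKM came from Cd9, which is not restricted to resident cells.

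Lrp1 (chr10:127538157-127621148, minus strand, 89 exons, 4545 residues) showed the largest fall of the 10 genes. It had 21671 expected counts in NT and 9495 in IL-4, or 130 and 55.7 FPKM. The level in IL-4 was 2.33-fold lower (counting interval 2.27 to 2.38), or -1.22 on the log2 scale (-1.25 to -1.18). Among 11653 genes with enough counts, 308, Lrp1 included, had a ratio as low or lower. Because Lrp1 was so abundant, its loss of 1120 CPM was the 6th largest of all genes. It passed from place 36 to place 125 in expected counts, and Mfge8 exceeded Lrp1 in FPKM 8.83-fold in NT and 19.8-fold in IL-4.

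Lrp1 is also one of the longest transcripts in the tables, at 14907 bases, and ratios in these libraries fell with length. The 200 genes nearest to Lrp1 in length, which ran from 9119 to 19827 bases, had a median log2 ratio of -0.60. With that median subtracted the ratio of Lrp1 was -0.62, with an interval from -0.65 to -0.58, which excluded 0 but no longer passed the threshold. Within this window 12 genes were as low as Lrp1 or lower. Among 77 other genes of at least 10000 bases with at least 1000 counts, 75 lay below 0 and 2 were as low as Lrp1 or lower. Whether length itself, or a difference between the libraries that acts on long transcripts, had a part in the fall of Lrp1 was not tested. Gas6, at 2594 bases, lay where the nearest 200 genes had a median of 0.05, and its ratio after subtraction was -1.11. In that window 3 genes were as low as Gas6 or lower.

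**Figure D3:**
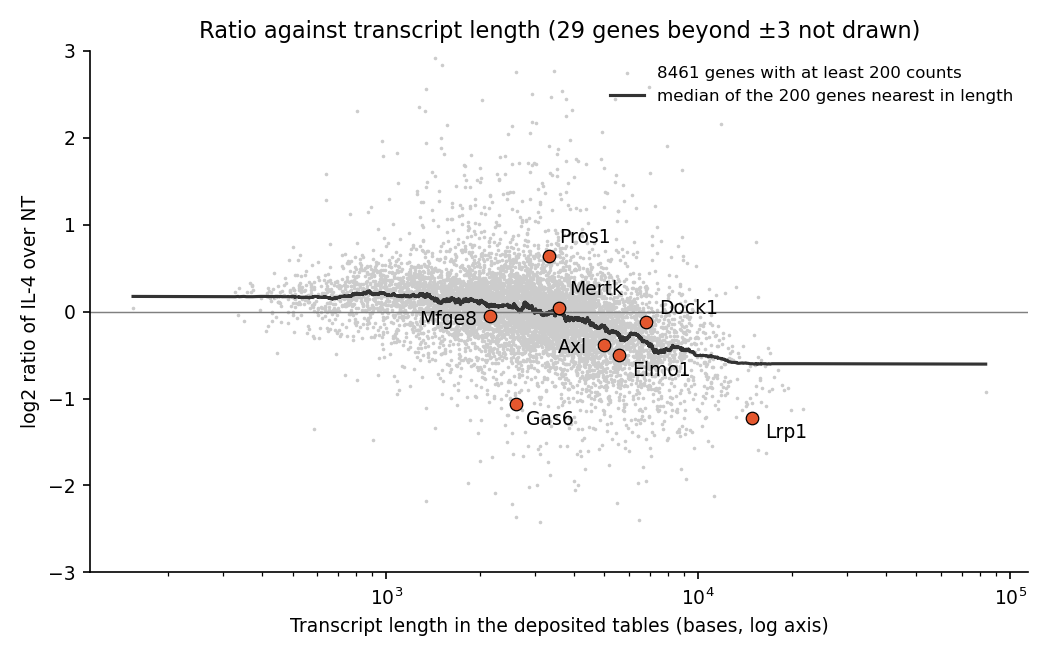
Log2 ratio of IL-4 over NT against transcript length in bases (log axis) for 8461 genes with at least 200 counts in grey (29 beyond the vertical axis are not drawn), with the median of the 200 genes nearest in length as a black line and 8 uptake genes in orange. The line declines from above 0 for short transcripts to about -0.60 for the longest, Lrp1 lies below it at the far right, and Gas6 lies far below it at a middle length.

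Lrp1 lies next to Stat6, the main transcription factor of the IL-4 response. Its start site is 21.8 kb from the start of Stat6 (chr10:127642955-127660987), with 1 annotated noncoding gene between them, and they are transcribed away from each other. Stat6 had 2951 counts in NT and 2420 in IL-4, which gave -0.31 on the log2 scale (interval -0.39 to -0.24) and no call. The pair of noncoding genes annotated within the Lrp1 span were not listed in either library. Lrpap1, the chaperone that escorts Lrp1 through the secretory pathway, had 1851 counts in NT and 2175 in IL-4, and the log2 ratio of Lrp1 differed from that of Lrpap1 by -1.42 (interval -1.52 to -1.33). Lrpap1 has a much shorter transcript, and relative to genes of their own lengths the difference was -0.77 (interval -0.87 to -0.67). Fibroblasts also express Lrp1, and the fibroblast markers given above apply here too. Their part in the fall of Lrp1 was not tested.

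The signalling partners showed smaller differences. Elmo1 (chr13:20090507-20608353, 22 exons), the scaffold that holds Dock1 in its active form, had 1044 counts in NT and 752 in IL-4, or 16.8 and 11.9 FPKM. Its log2 ratio was -0.50, with an interval from -0.64 to -0.36, and it was not called. Dock1 (chr7:134670687-135173647, 52 exons), which loads Rac with GTP, had 689 counts in NT and 644 in IL-4, or 9.05 and 8.29 FPKM, and its log2 ratio was -0.13 (interval -0.28 to 0.03). The ratio of Elmo1 was lower than that of Dock1 by a difference of -0.37 (interval -0.59 to -0.17). Genes of the length of Elmo1 and Dock1 had median ratios of -0.26 and -0.35, and with these subtracted the ratios were -0.24 and 0.22. The sign of Dock1 thus turned with the length trend.

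Their paralogs were examined because leukocytes use several. Elmo2 was at 17.7 FPKM in NT and 21.8 in IL-4, with a log2 ratio of 0.30, and the ratio of Elmo1 differed from it by -0.80 (interval -0.99 to -0.61). Per length, Elmo1 and Elmo2 were close in NT (16.8 and 17.7 FPKM), whereas in IL-4 they were at 11.9 and 21.8. Elmo3 was nearly absent, at 0.24 and 0.14 FPKM. Dock2, the hematopoietic relative of Dock1, was at 67.3 FPKM in NT and 61.1 in IL-4, well above Dock1 in both. The log2 ratios of Dock1 and Dock2 differed by 0.01, with an interval from -0.15 to 0.18.

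Ordered by FPKM, the 10 genes in NT ran from Mfge8 through Lrp1, Gas6, Mertk, Elmo1, Pros1, Dock1, Axl and Timd4 to Tyro3. Gas6 and Mertk did not differ beyond counting error there (1.09-fold, interval 0.99 to 1.21), and all the other neighbours did. In IL-4 the order was Mfge8, Lrp1, Mertk, Pros1, Gas6, Elmo1, Dock1, Axl, Timd4 and Tyro3. Gas6 and Elmo1 were indistinguishable in that library (1.002-fold, interval 0.88 to 1.14), as were Timd4 and Tyro3 (2.28-fold, interval 0.81 to 6.64). Gas6 thus moved from the third place to the fifth and Pros1 from the sixth to the fourth.

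The list of other engulfment receptors, which also holds the inhibitory genes Cd47 and Lair1, gave a mixed picture. Of its 28 genes 21 had enough counts, and of these 5 were called higher and 3 lower, with a median log2 ratio of 0.02. Among all genes with enough counts the shares were 4.66% higher and 7.57% lower, and a departure from them was not tested. Olr1, a lectin-like scavenger receptor, rose from 22 to 133 counts (log2 ratio 2.54). Lair1, an inhibitory collagen receptor, rose from 589 to 1773 counts (1.56), and Itgb3 is given above. Cd93, a lectin-like glycoprotein linked to the clearance of apoptotic cells, fell from 7962 to 2351 counts (-1.79). Stab1 (stabilin-1), a phosphatidylserine receptor, fell from 924 to 343 counts (-1.46), and Cd14, a receptor for lipopolysaccharide that also binds apoptotic cells, fell from 1219 to 591 (-1.07). The remaining 2 calls, named after their values were seen, were Cd47, the do-not-eat-me signal, which rose from 697 to 1444 counts (1.02), and the scavenger receptor Cd36, which rose from 18386 to 31898 (0.77). The ratio of Cd36 was only just past the threshold of 0.75. Trem2, the most abundant gene of the list in NT, was at 680 FPKM there and 688 in IL-4 and was not called, and in IL-4 Cd36 stood above it at 795 FPKM.

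Among 20 other bridging molecules and opsonins, 13 had enough counts, with a median of 0.13. Of these, 1 was called higher and 0 lower, beside 4.66% and 7.57% of all genes with enough counts. The called gene was Fn1 (fibronectin), which rose from 5006 to 19129 counts with a log2 ratio of 1.91. Its transcript is 7922 bases long, and the genes nearest in length had a median of -0.44. Lgals3 (galectin-3), a known Mertk ligand and the most abundant gene of the list, was at 4701 FPKM in NT and 6588 in IL-4, which gave 0.49 on the log2 scale and no call. The C1q chains C1qa, C1qb and C1qc were not called, with log2 ratios of 0.31, 0.13 and 0.25.

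Of 29 other genes of the ELMO, DOCK and RAC module, 26 had enough counts, 0 were called higher and 4 lower, and the median was -0.39. The same rule called 4.66% of all genes with enough counts higher and 7.57% lower, and a departure from those shares was not tested. With the medians of the 200 genes nearest in length subtracted, 1 of the 26 was called higher and 1 lower. The median of -0.39 does not take length into account. Dock8 fell from 1048 to 481 counts (log2 ratio -1.15) and Dock5 from 466 to 243 (-0.97), and these encode exchange factors for Cdc42 and Rac. Vav3, another exchange factor, fell from 549 to 310 counts (-0.85), and Wasf2, a subunit of the WAVE complex that nucleates branched actin, fell from 1765 to 1004 (-0.84). Relative to the 200 genes nearest to each in length, the ratios were -0.70 for Dock8, -0.46 for Dock5, -0.69 for Vav3 and -0.76 for Wasf2, so Wasf2 kept its call and the other 3 lost theirs. Dock3, a relative of Dock1 with 56 counts in NT and 84 in IL-4, was not called at 0.55 but passed as higher at 1.001 on that scale. Arpc2, a subunit of the Arp2/3 complex and the most abundant gene of the list, was at 376 FPKM in NT and 368 in IL-4, and Rac1 was at 212 in both. Neither was called.

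**Figure D4:**
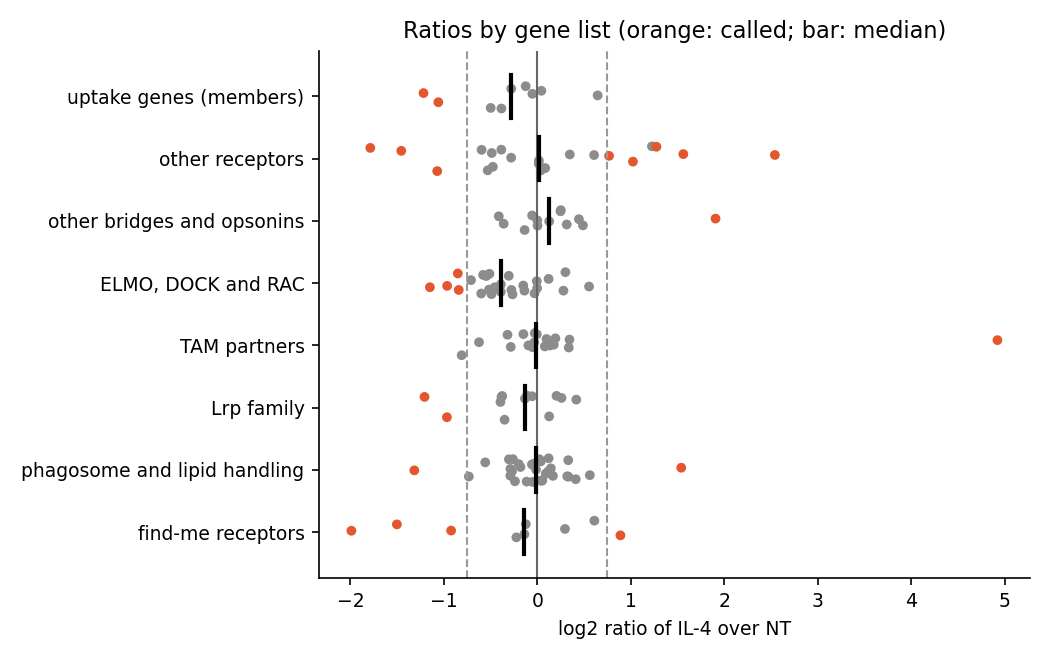
Log2 ratio of IL-4 over NT for the genes with at least 20 counts in each list, 1 row per list, with called genes in orange, a black bar at the median and dashed lines at -0.75 and 0.75. Called genes of the receptor list lie on both sides of 0. The called genes of the ELMO, DOCK and RAC module and of the Lrp family all lie below 0.

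Of 20 partners and downstream genes of the TAM kinases, 18 had enough counts. Beside shares of 4.66% higher and 7.57% lower over all genes with enough counts, 1 of the 18 was called. This was Socs1, an inhibitor of cytokine signalling that both TAM kinases and Stat6 can induce, which rose from 11 to 355 counts (log2 ratio 4.92, interval 4.13 to 6.00). Socs3 was at 3.68 FPKM in NT and 4.68 in IL-4 and was not called. Adam17 and Adam10, proteases that shed Mer and Axl from the cell surface, were not called either, with log2 ratios of -0.28 and 0.34. Grb2, the adaptor with the highest level in the list, was at 138 FPKM in NT and 135 in IL-4.

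Most relatives of Lrp1 with enough counts were not called. Of 17 other genes of the Lrp family and its partners, 13 had enough counts, 0 were called higher and 2 lower, and the median was -0.13. Over all genes with enough counts, 4.66% were called higher and 7.57% lower. With 13 genes, a departure from those shares was not tested. Sorl1, a sorting receptor, fell from 508 to 224 counts (log2 ratio -1.21), and Lrp5, a Wnt co-receptor, from 248 to 129 (-0.97). Relative to the 200 genes nearest in length these were -0.82 and -0.73, so that Sorl1 kept its call and Lrp5 lost it. Lrp12 was at 67.9 FPKM in NT and 62.9 in IL-4 and was not called. Lrp1, at 130 FPKM, thus exceeded Lrp12 in NT, but in IL-4 Lrp12 stood above its 55.7 FPKM. Calr, which encodes calreticulin and was the most abundant gene of the list, was at 625 FPKM in NT and 601 in IL-4.

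Genes that handle the engulfed cargo were mostly near their NT levels, with a median of -0.01. Of 31 tested, 1 was called higher and 1 lower, beside 4.66% and 7.57% of all genes with enough counts. Pparg, a lipid-sensing nuclear receptor, rose from 1077 to 3192 counts (log2 ratio 1.54). Abca1, the cholesterol exporter that macrophages use after engulfment, fell from 912 to 373 counts (-1.32), or -0.81 relative to the 200 genes nearest in length. Abcg1, another cholesterol exporter, had 2626 counts in NT and 3950 in IL-4, which was not called at 0.56 but passed as higher at 0.89 on that scale. Lamp1, a lysosomal membrane protein and the most abundant gene of the list, was at 2174 FPKM in NT and 2206 in IL-4. Of 13 receptors for signals released by dying cells, 9 had enough counts, with a median of -0.14. In this group 1 was called higher and 3 lower, beside the same 4.66% and 7.57% of all genes. With 9 genes, a departure from those shares was not tested. P2ry6, a receptor for extracellular UDP, rose from 618 to 1167 counts (0.89). In FPKM it went from 29.2 to 54.1, which was below S1pr2 in NT (34.7) and above it in IL-4 (31.8). S1pr1, a receptor for sphingosine 1-phosphate, fell from 169 to 43 counts (-1.99), Gpr132, which responds to lysophosphatidylcholine, from 240 to 86 (-1.50), and Cx3cr1, the fractalkine receptor, from 61.2 to 32.7 (-0.92).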

How the data were processed

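RNA of 1 NT and 1 IL-4 sample was sequenced on an Illumina HiSeq at BGI. As its methods state, the authors aligned the reads with Bowtie against GRCm38/mm10, RSEM then gave the level of each gene, and versions were not given in the sources used here. The deposited expected counts are RSEM estimates, not scaled for depth, and the deposited FPKM values are scaled for transcript length and depth. Per the file headers, another column gives transcript length. NCBI gene numbers were matched to symbols for 15587 of 15623 genes through RefSeq (GRCm38.p6), which also gave coordinates. Exon and residue numbers came from GENCODE mouse release M21.

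Ratios used expected counts scaled to library totals, with 0.5 count added. For a single gene the interval (95%, Clopper-Pearson, exact) was that of the fraction of its rounded counts found in IL-4, and those of a difference between 2 genes were exact conditional odds ratios, all put on the log2 scale. They treat reads as independent, which PCR copies are not. With 1 library per group no p-value was computed. The scripts were tested on simulated data. The genes and gene lists were chosen with earlier results of these data known. All members are named, and of each other list the called genes (at most 6, by size of ratio) and the most abundant gene by mean FPKM, while further genes are named for their role beside a member. A withheld gene is not reported here. No gene was sought for a pattern like that of a member, since each has 1 ratio. Alternatives were scaling by DESeq2 1.42.0 (median of ratios), by edgeR 4.0.16 (TMM) or by a total that omitted the top 100 genes, FPKM with 0.1 or 1 added, other thresholds and count filters, and subtraction of the length trend, which was extended to pairs of genes and to the lists after the data were seen. Scripts ran in R 4.3.3 and Python 3.11.15 (scipy 1.17.1, numpy 2.4.6, matplotlib 3.10.9, pandas 2.3.3).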

Additional observations from a re-analysis of the deposited data

How the results depend on the processing

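No paired analysis was possible because NT and IL-4 are single libraries. All 10 alternatives were run. Of 90 comparisons of a member's ratio with an alternative, 88 kept their call or lack of one, 1 was weaker, 1 was stronger and 0 of the called ratios reversed. Many of these comparisons could change little. Other thresholds and count filters used the same ratios, other scalings shifted every gene alike, and the FPKM alternatives kept the same counting intervals. Tyro3 had too few counts to be called under any alternative with a count filter. Without a filter 0 members were called higher, and the interval of Tyro3, from -1.14 to 2.61, included 0. With the length trend subtracted the ratio of Lrp1 was -0.62 and 1 member (Gas6) was called lower in place of 2. At a fold of at least 1.5 Pros1, still at 0.64, was called and made 1 member higher in place of 0. Gas6 was called under every alternative, with ratios from -1.11 to -1.002. Over all genes the lower calls were 882, but 389 with FPKM and 1 added and 483 when a log2 ratio of 1 was required. An added FPKM shrinks the ratios of weakly expressed genes. The higher calls were 543, and 370 with FPKM and 1 added, so that the calls were then nearly even in number. Other scalings moved the median ratio by at most 0.037. Chosen after seeing the data, the same length correction was applied to the 6 pairs and to the gene lists, and of the pairs it changed whether the interval included 0 only for Mertk and Axl (0.27). Depth limits Tyro3 and Timd4, with 13 and 22 counts over both libraries.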
